A study of Mus musculus with 10 samples.

Results

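The endothelin and angiotensin system of the heart was described through 7 genes, of 55335 in the deposited table. They were the precursor gene Edn1, the converting enzyme gene Ece1, the receptor genes Ednra and Ednrb, the precursor gene Agt, the converting enzyme gene Ace and the receptor gene Agtr1a. All 7 were found in the table by their symbols, and no filter on level was used to choose them. RNA-seq had been run on hearts of wild-type male mice whose dams received anti-Müllerian hormone in pregnancy (PAMH, 5 samples) or vehicle, given as PBS in the growth protocol (control, 5 samples). Exposing pregnant mice to this gonadal hormone gives offspring with traits of polycystic ovary syndrome. No strain, age at collection or dose could be taken from the sample labels. Since samples could not be assigned to dams or litters either, the p-values reflect sample-to-sample spread, part of which may be technical. The exposure was given to dams, so samples that share a dam would not be independent, and the p-values could then be too small.

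Endothelin-1 is cut from a precursor by endothelin-converting enzyme and is mostly made by endothelial cells. Receptor A (Ednra) sits on smooth muscle cells and cardiomyocytes, where it drives contraction and growth, and receptor B (Ednrb) on endothelial cells triggers nitric oxide release and clears the peptide. Angiotensin II is released from angiotensinogen (Agt) by renin and then angiotensin-converting enzyme (Ace), and acts on the type 1 receptor (Agtr1a in mouse). These receptors couple to Gq and G12/13 proteins, and both peptides constrict vessels and promote hypertrophy and fibrosis in the heart.

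Of the 7 genes 6 were tested and 1 was called between the groups, where 6.19% of all tested genes were called. Ednra was higher in PAMH hearts, by 1.31-fold in mean level, and all 5 PAMH samples lay above all 5 control samples, as for 6.74% of all tested genes. The call of Ednra was near the threshold and was lost in 12 of 20 alternatives, with the same direction in all 20. Ednrb was not called. The ratio of Ednra to Ednrb was higher in PAMH hearts, but stayed past its threshold in only 7 of 13 alternatives. Among the 13, a test by replicate number could not pass with 5 pairs. The precursor Agt, the enzymes Ece1 and Ace, and Ednrb had negative log2 fold changes and Agtr1a a positive one, and none of these passed the test. Edn1 averaged under 1 FPKM and was not tested in the main fit. Without a filter on level its log2 fold change was -0.19 (limma adjusted p = 0.704). Among genes that act below the receptors, respond to the peptides or belong to other systems of vascular tone, Gna12, Nppb, Myh7 and Adm were called higher and Rgs2, Prkd1, Adra1a and Apln lower in PAMH hearts. The calls of Nppb, Myh7, Rgs2 and Adra1a held in every alternative that tested them. Gna12 lost its call in 11 of 21 alternatives, Adm in 12 of 20, Apln in 7 of 20 and Prkd1 in 4 of 20.

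The promoters of both endothelin receptor genes are shown because Ednra was the gene called and Ednrb is the receptor it is set against. The windows below run from 250 bases before to 50 bases after the start site that RefSeq gives (build GRCm38.p6), at chr8:77724403-77724702 for Ednra and chr14:103843652-103843951 for Ednrb, both on the minus strand and printed 5′ to 3′. Capitals mark matches to a CCAAT box (CCAAT, read on either strand).
Ednra: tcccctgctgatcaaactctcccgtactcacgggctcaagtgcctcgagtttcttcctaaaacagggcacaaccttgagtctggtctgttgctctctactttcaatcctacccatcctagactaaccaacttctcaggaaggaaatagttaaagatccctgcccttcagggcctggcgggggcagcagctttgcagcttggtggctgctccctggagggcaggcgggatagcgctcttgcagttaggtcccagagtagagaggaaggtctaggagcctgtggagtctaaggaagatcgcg
Ednrb: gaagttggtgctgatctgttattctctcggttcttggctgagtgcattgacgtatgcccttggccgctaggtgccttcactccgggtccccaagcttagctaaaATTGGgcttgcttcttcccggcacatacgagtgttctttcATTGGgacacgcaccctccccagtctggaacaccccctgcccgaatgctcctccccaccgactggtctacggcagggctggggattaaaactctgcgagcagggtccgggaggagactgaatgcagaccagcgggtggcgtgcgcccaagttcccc
The Ednrb window held 2 CCAAT matches, both on the opposite strand of the window (starting 146 and 106 bases before the start site), and the Ednra window held none. In neither window was there a match to the TATA box (TATAAA), to the GC box (GGGCGG), to the E box (CACGTG) or to the CArG box of smooth muscle genes, searched on both strands. Among 32851 RefSeq promoter windows of the same length 37.4% held CCAAT, 13.6% TATAAA, 35.7% GGGCGG, 7.15% CACGTG and 1.63% a CArG box. The G and C content was 54.7% for Ednra and 58.7% for Ednrb, against a median of 52.7% over all windows. In the GENCODE annotation the Ednrb gene begins further upstream, outside this window (gene end at 103844402).

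The levels were low to moderate. FPKM (fragments per kilobase of transcript, scaled to the mapped fragments of a library) are corrected for length and can be set side by side between genes. Over the 10 samples the mean level was 9.27 FPKM for Ece1, 8.15 for Ace, 5.85 for Agtr1a, 4.81 for Ednra, 1.78 for Ednrb, 1.46 for Agt and 0.933 for Edn1. Only Ednra and Ednrb, of the neighbours in this order, had ranges that did not overlap, with Ednra above Ednrb in 10 of 10 samples. Agt was above Edn1 in 9 samples, and each other gene was above the next in 8 samples, so these steps lay within the spread. The tissue label could be checked against 12 cardiomyocyte markers, all tested, with 0 called in limma and 4 with an unadjusted p under 0.05. Among all 9439 tested genes 2264 had an unadjusted limma p under 0.05, and counts for each list are to be read beside that share. The summed level of the cardiomyocyte markers was 9790 to 12400 FPKM in control and 8690 to 14300 FPKM in PAMH samples. Of 7 atrial markers 2 were tested and 0 called in limma (1 with an unadjusted p under 0.05), and their summed level was 54.2 to 136 and 89.8 to 225 FPKM. Nppa made up most of that sum, at 46.5 to 129 and 78.4 to 217 FPKM, and Stard10 was at 5.11 to 7.24 and 6.21 to 10.9 FPKM. Myl4 and Dkk3 were above 0 in every sample, at up to 0.306 and 0.469 FPKM, and Sln, Bmp10 and Myl7 were listed at 0 in most samples and reached 0.0394, 0.0502 and 1.02 FPKM.

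**Figure D1:**
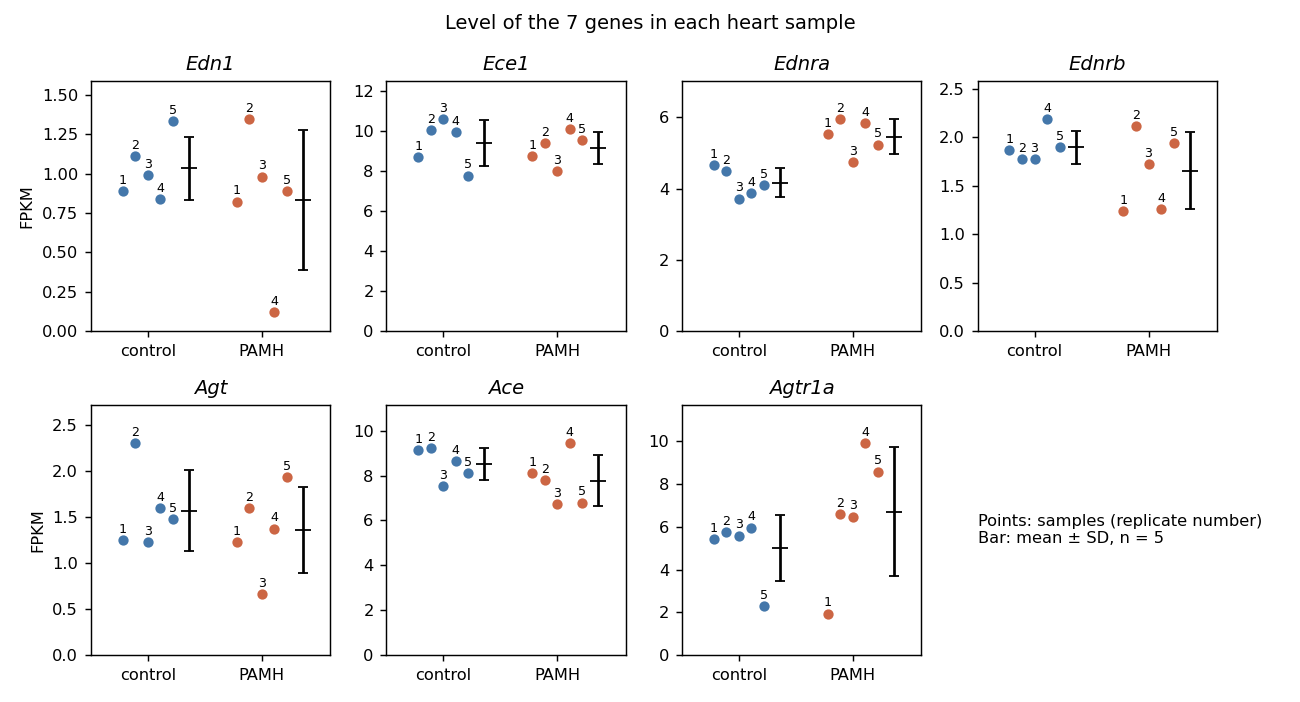
FPKM of each gene (vertical axis, from 0) in the 5 control and 5 PAMH samples, numbered by replicate, with the mean ± SD beside them. Ednra is the gene whose PAMH points, 4.75 to 5.95 FPKM, all lie above the control points, 3.72 to 4.66 FPKM.

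Genes were tested with limma on log2(FPKM + 1), and called at an adjusted p under 0.05 over all 9439 genes that had a mean of at least 1 FPKM. Of these, 6.19% were called in either direction, 4.95% higher and 1.24% lower in PAMH hearts. The split of 467 higher and 117 lower calls depended on scaling. With median ratio scaling it was 218 and 212, with quantile normalization 234 and 246, and with the mitochondrial genes left out 216 and 202. The count was 1126 without PAMH replicate 3 and between 274 and 342 without control replicate 1, 3, 4 or 5 or PAMH replicate 1 or 5. Each sample's FPKM summed to 654350 to 717453, the number of genes above 0 was lowest in PAMH replicate 4 (16113) and PAMH replicate 5 (18037), and the read depth is unknown. Of the 7 genes 6 were above the filter, with 1 called higher and 0 lower. The median of these 6 log2 fold changes was -0.08, where that of all tested genes was 0.07.

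Ednra (chromosome 8, 77663031 to 77724464) encodes the endothelin receptor through which smooth muscle contracts. Its level was 4.66, 4.49, 3.72, 3.87 and 4.10 FPKM in control replicates 1 to 5 and 5.52, 5.95, 4.75, 5.83 and 5.24 FPKM in PAMH replicates 1 to 5. The groups did not overlap, and PAMH replicate 3 was the PAMH sample nearest to the controls. In limma the log2 fold change was 0.32 (SE 0.08, 95% interval 0.15 to 0.50, adjusted p = 0.0349), from 4.17 ± 0.399 to 5.46 ± 0.483 FPKM (mean ± SD, n = 5 each). Among all tested genes 8.44% had groups that did not overlap, 6.74% with PAMH higher and 1.71% with PAMH lower. By its p Ednra ranked 412 of the 9439 tested genes, and 10.8% of them had a larger change in either direction.

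The call of Ednra was near the threshold. It held in 8 of 20 alternatives, with a positive log2 fold change in all 20 (0.23 to 0.38) and a limma adjusted p of 0.0145 to 0.0957. It ended without control replicate 3, 4 or 5 (adjusted p = 0.0957, 0.0922 and 0.0827) and without PAMH replicate 1, 2 or 5 (0.0755, 0.0716 and 0.0584), and also under median ratio scaling (0.0757) and quantile normalization (0.0703). Its log2 fold change stood 0.22 to 0.32 above the median of all genes in every alternative that tested it. Ednra shares 91 exonic bases with 4933431K23Rik on the opposite strand, which averaged 0.477 FPKM, and as the strand setting is not known, reads of the pair cannot be separated.

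The levels of Ednra were set beside markers of the cells that can carry it. Fewer cells of a type and less RNA per cell cannot be told apart in such tissue. Of 8 tested smooth muscle markers 1 was higher, the smooth muscle actin gene Acta2, with 2 at an unadjusted p under 0.05. Their log2 fold changes were positive for 7 of 8, where 67.3% of all tested genes had a positive one. The summed level of the list was 57.0 to 83.7 FPKM in control and 88.2 to 144 FPKM in PAMH samples. Without Acta2 the other 9 markers summed to 30.5 to 42.3 and 31.0 to 43.2 FPKM, in overlapping ranges. Pericyte markers (9 tested, none called, 1 with an unadjusted p under 0.05) summed to 107 to 135 and 97.2 to 128 FPKM, and fibroblast markers (12 tested, none called, 1 with an unadjusted p under 0.05) to 363 to 399 and 309 to 432 FPKM. Of 8 epicardial and mesothelial markers only 2 were tested, and these were higher (Upk3b and Aldh1a2), where 4.95% of all tested genes were higher. Upk3b averaged 0.293 FPKM in control and 2.04 FPKM in PAMH samples, so it passed the filter only through the group where it is high. The 8 markers summed to 2.17 to 3.07 FPKM in control and 5.71 to 9.87 FPKM in PAMH samples. The part of Acta2-expressing or mesothelial cells in the level of Ednra was not tested.

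Ednrb (chromosome 14, 103814625 to 103844402), the receptor of endothelial cells, was at 1.86, 1.77, 1.77, 2.18 and 1.90 FPKM in control replicates 1 to 5 and at 1.24, 2.11, 1.73, 1.26 and 1.94 FPKM in PAMH replicates 1 to 5. PAMH replicates 1 and 4 were the lowest of the 10 samples, while PAMH replicates 2, 3 and 5 lay at or near the control values. The log2 fold change was -0.14 (SE 0.10, 95% interval -0.36 to 0.08) and did not pass (limma adjusted p = 0.441). Endothelial markers had 1 of 14 tested genes lower, the tight junction gene Cldn5, and none higher, with 4 at an unadjusted p under 0.05. Over all tested genes 1.24% were called lower and 4.95% higher. Their summed level was 130 to 152 FPKM in control and 118 to 147 FPKM in PAMH samples, in overlapping ranges.

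The endothelin receptor genes were also set against each other within each sample. The ratio of Ednra to Ednrb, with 0.1 FPKM added to each, was 2.42, 2.45, 2.04, 1.74 and 2.10 in control replicates 1 to 5 and 4.20, 2.73, 2.66, 4.36 and 2.62 in PAMH replicates 1 to 5. No PAMH sample was as low as any control, and PAMH replicates 1 and 4, where Ednrb was lowest, had the highest ratios. The log2 ratio rose from 1.09 ± 0.204 to 1.69 ± 0.374 (SD, n = 5 each), a difference of 0.59 (exact 2-sided permutation p = 0.00794, the smallest that 5 against 5 samples can give; adjusted p = 0.0317 over 4 ratios). Apart from the 0.1 FPKM added, such a ratio does not depend on the scaling of a sample. It stayed past the threshold when any single PAMH sample was left out, and missed it without control replicate 1, 2, 3, 4 or 5 (exact permutation, adjusted p = 0.0635, 0.0635, 0.0952, 0.127 and 0.0952), with differences of 0.52 to 0.65.

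**Figure D2:**
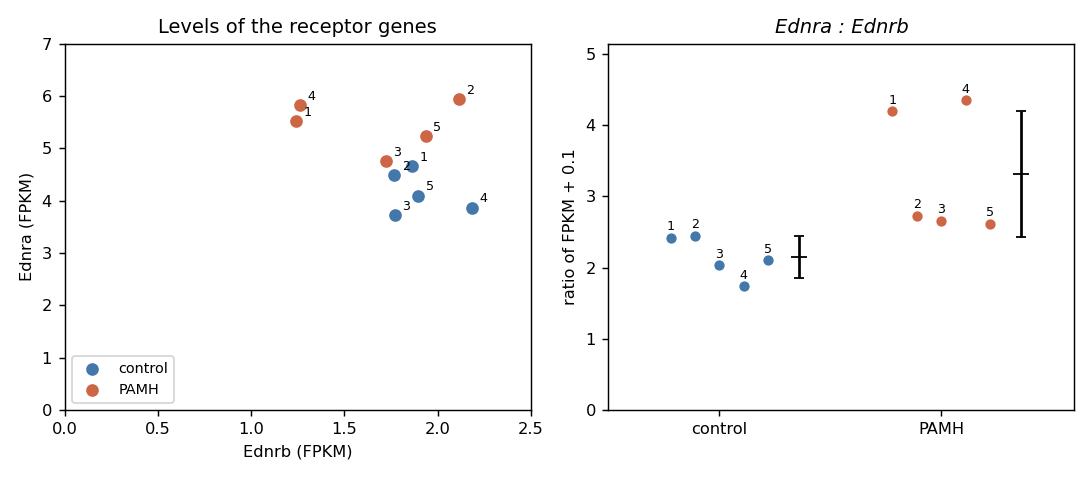
Left, Ednra against Ednrb in FPKM for each sample, numbered by replicate (both axes from 0). Right, the ratio of the receptor genes with 0.1 FPKM added to each, with the mean ± SD. The PAMH ratios, 2.62 to 4.36, lie above the control ratios, 1.74 to 2.45.

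The endothelin precursor gene Edn1 (chromosome 13, 42301476 to 42307990) averaged under 1 FPKM and was below the filter. Its level was 0.890, 1.11, 0.992, 0.839 and 1.34 FPKM in control replicates 1 to 5 and 0.822, 1.34, 0.981, 0.123 and 0.887 FPKM in PAMH replicates 1 to 5. PAMH replicate 4 was far below all other samples, which otherwise overlapped. In the limma fit without a filter the log2 fold change was -0.19 (SE 0.18, adjusted p = 0.704). When PAMH replicate 4 was left out, Edn1 passed the filter of 1 FPKM. In that filtered limma fit its log2 fold change was -0.02 (adjusted p = 0.925). PAMH replicate 4 was also the sample with the fewest genes above 0, and the part of this in the level of Edn1 was not tested.

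Ece1 (chromosome 4, 137862237 to 137965229), whose product cuts the endothelin precursor to the active peptide, was the highest of the 7 genes. It was at 8.69, 10.02, 10.6, 9.92 and 7.76 FPKM in control replicates 1 to 5 and at 8.74, 9.38, 8.004, 10.1 and 9.53 FPKM in PAMH replicates 1 to 5. The ranges overlapped almost fully. The log2 fold change was -0.03 (SE 0.09, 95% interval -0.23 to 0.17, limma adjusted p = 0.867), and its sign turned in 3 of 21 alternatives. The ratio of Edn1 to Ece1 had overlapping groups (difference of -0.46 on the log2 scale, exact permutation p = 0.579, adjusted p = 0.738 over 4 ratios).

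Agt (chromosome 8, 124556534 to 124569706) encodes angiotensinogen, which the liver supplies to the circulation and the heart makes at a low level. It was at 1.24, 2.30, 1.22, 1.59 and 1.47 FPKM in control replicates 1 to 5 and at 1.22, 1.596, 0.660, 1.37 and 1.93 FPKM in PAMH replicates 1 to 5. The highest value was in control replicate 2 and the lowest in PAMH replicate 3, and the rest overlapped. In limma the log2 fold change was -0.13 (SE 0.15, 95% interval -0.46 to 0.19, adjusted p = 0.627).

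Ace (chromosome 11, 105967945 to 105989964), an enzyme on the surface of endothelial cells that forms angiotensin II and degrades bradykinin, was at 9.12, 9.21, 7.53, 8.64 and 8.12 FPKM in control replicates 1 to 5. In PAMH replicates 1 to 5 it was at 8.11, 7.81, 6.72, 9.46 and 6.79 FPKM. PAMH replicates 3 and 5 were below all controls and PAMH replicate 4 was above them. Its log2 fold change of -0.12 (SE 0.09, 95% interval -0.33 to 0.08) did not pass (limma adjusted p = 0.452), and was negative in all 21 alternatives (-0.24 to -0.08, adjusted p from 0.078). The ratio of Ace to Ece1 differed by -0.10 on the log2 scale (exact permutation p = 0.437, adjusted p = 0.738) and that of Agt to Ace by -0.09 (exact permutation p = 0.738, adjusted p = 0.738).

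Agtr1a (chromosome 13, 30336441 to 30382867), the main mouse receptor for angiotensin II, varied most among the samples. It was at 5.41, 5.75, 5.59, 5.97 and 2.27 FPKM in control replicates 1 to 5 and at 1.94, 6.61, 6.48, 9.93 and 8.59 FPKM in PAMH replicates 1 to 5. In each group 1 sample, control replicate 5 in the vehicle group and PAMH replicate 1 in the exposed group, stood far below the rest, and all other PAMH samples were above all controls. The log2 fold change was 0.29 with an SE of 0.32 (95% interval -0.41 to 0.98) and did not pass (limma adjusted p = 0.622). It was 0.60 without PAMH replicate 1 (adjusted p = 0.147), 0.08 without control replicate 5 (0.918), 0.13 without PAMH replicate 4 (0.844) and 0.18 without PAMH replicate 5 (0.805). Agtr1a has 6 annotated transcripts, and their part in its values was not tested.

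Sumo3, which encodes a small protein attached to other proteins, was among the genes whose pattern was most like that of Agtr1a over the 10 samples once group means were subtracted (r = 0.94). It was at 2.98 FPKM in control replicate 5 and 3.51 FPKM in PAMH replicate 1, and at 7.17 to 12.9 FPKM in the other samples. This pair of samples held the lowest values of the 10 for 84 of 9439 tested genes (0.890%). By this count it ranked 37 of the 45 pairs of samples, level with rank 36, and the first pair had 7.14%. The part of the libraries in this pattern was not tested. The most alike gene of all, AC122253.2 (r = 0.95), carries no name in the annotation.

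**Figure D3:**
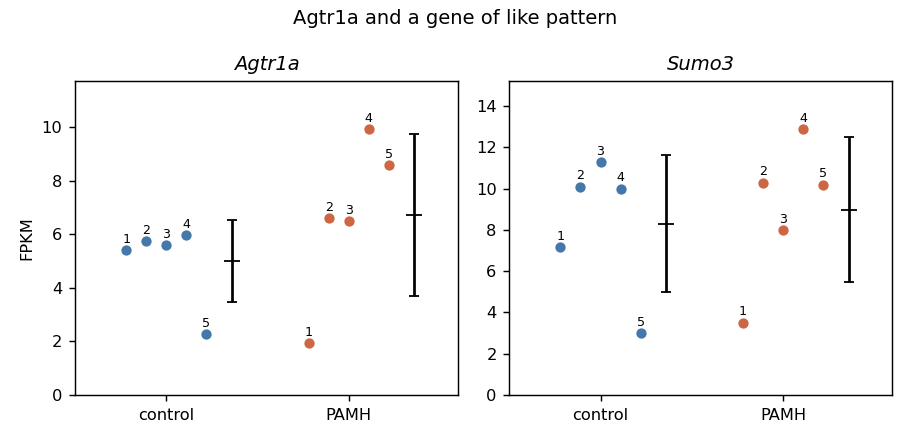
FPKM of Agtr1a and of Sumo3 (vertical axes, from 0) in each sample, numbered by replicate, with the mean ± SD. Control replicate 5 and PAMH replicate 1 are the lowest samples for both genes, at 2.27 and 1.94 FPKM for Agtr1a.

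For the other genes the most alike patterns, by Pearson's r over the 10 samples on the log2(FPKM + 1) scale with group means subtracted, were sought among 8654 genes. They are descriptions of samples that share a library and its scaling. For Ednra they were Adgre5 (r = 0.93) and Tspan9 (r = 0.90), and neither was called between the groups (limma adjusted p = 0.737 and 0.513). Rarg (r = 0.94) and Hcfc2 (r = 0.93) were nearest to Ednrb, and Arl2 (r = 0.95) and Nkiras2 (r = 0.92) to Ece1. Agt was most like Lmf1 (r = 0.94) and Pnkd (r = 0.92), and Ace most like Cpsf3 (r = 0.98) and Mrps5 (r = 0.97). Among the 7 genes themselves Ednra and Ace had the highest r (0.77), followed by Edn1 with Ednrb and Ece1 with Agtr1a (0.60 each), and Edn1 and Ace the lowest (-0.62).

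**Figure D4:**
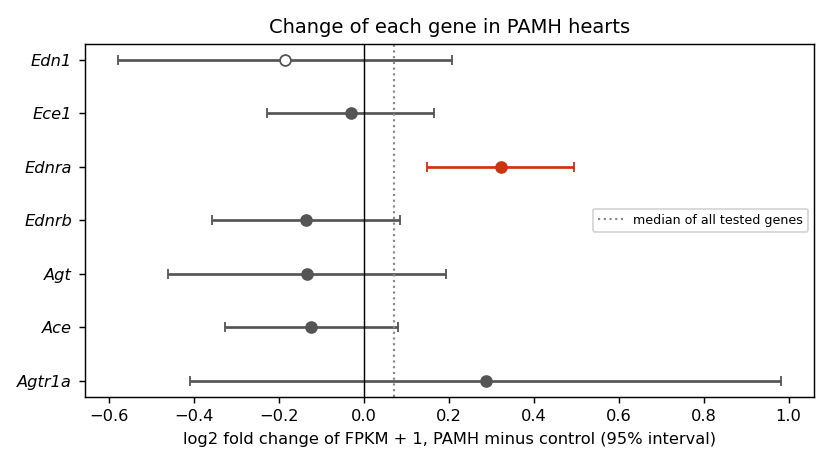
Log2 fold change of FPKM + 1 (horizontal axis, PAMH minus control) with its 95% interval for each gene. Edn1, the open symbol, comes from the fit without a filter, and the dotted line is the median of all tested genes, 0.07. The interval of Ednra, 0.15 to 0.50, is the only one that lies wholly above 0.

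The remaining endothelin genes were at or near 0 in these hearts, and 0 of 5 were above the filter. Edn3, another endothelin, was at up to 0.562 FPKM, and Edn2 was listed at 0 in all samples. Ece2, a relative of Ece1, and Kel reached 0.176 and 0.0294 FPKM. Mme, which encodes neprilysin, a peptidase that degrades endothelin and angiotensin peptides, averaged 0.551 ± 0.0493 FPKM in control and 0.468 ± 0.191 FPKM in PAMH samples and was not tested.

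Of 21 further renin-angiotensin genes with a row of values, 11 were tested in limma and 0 were called, with 2 at an unadjusted p under 0.05. The median log2 fold change of the tested genes was 0.01. The renin gene Ren1 was listed at 0 in every sample, as were Agtr1b and the protease gene Ctsg. Agtr2, the type 2 receptor, was listed at 0 in all but control replicate 2 (0.0279 FPKM). The receptor gene Mas1 averaged 0.102 ± 0.0205 and 0.117 ± 0.0394 FPKM. The most abundant gene of the list was Ctsd, the lysosomal protease cathepsin D, at 294 ± 34.8 and 371 ± 48.2 FPKM (log2 fold change 0.33, adjusted p = 0.0839). It passed with sample weights (limma adjusted p = 0.0227) and without PAMH replicate 3 (0.0104), the lowest PAMH sample at 286 FPKM. Without that sample the count of all called genes also rose, to 1126 from 584. Leaving out any other single sample gave Ctsd an adjusted p of 0.0521 to 0.186. Ctsa, Agtrap and Lnpep, the next 3 by level, did not pass (limma adjusted p = 0.288, 0.730 and 0.673). Agtrap encodes a protein that promotes internalisation of the type 1 receptor, and Lnpep an aminopeptidase that binds angiotensin IV.

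Below the receptors, 26 of 35 genes of Gq and G12/13 signalling were tested, with 1 higher, 2 lower and 23 not called. The shares over all tested genes were 4.95% higher and 1.24% lower. The median of the list was 0.04 on the log2 scale. In limma 5 of the 26 had an unadjusted p under 0.05. The regulator Rgs2, which speeds the shutdown of Gq and so limits the response to angiotensin II and endothelin, was at 5.98, 5.59, 5.33, 5.90 and 4.13 FPKM in control replicates 1 to 5. In PAMH replicates 1 to 5 it was at 3.48, 3.68, 3.19, 2.38 and 2.83 FPKM. Every PAMH sample was below every control, as for 1.71% of all tested genes, and control replicate 5 was nearest to the PAMH samples. In limma the log2 fold change was -0.64 (SE 0.11, adjusted p = 0.00756), and Rgs2 stayed called in all 20 alternatives that tested it (adjusted p up to 0.0322).

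Prkd1, protein kinase D1, which carries Gq signals to hypertrophy genes, fell from 1.31 ± 0.0866 to 0.870 ± 0.0939 FPKM (n = 5 each; log2 fold change -0.31, SE 0.07, limma adjusted p = 0.0206). Its PAMH mean lay under the filter of 1 FPKM, so it was tested only through its level in the control group. Its groups did not overlap, as with PAMH lower for 1.71% of all tested genes. The call of Prkd1 ended without control replicate 1, 3 or 4 (adjusted p = 0.0662, 0.0586 and 0.0528). Gna12, the alpha subunit of G12, rose from 31.6 ± 2.44 to 41.3 ± 4.48 FPKM (a log2 difference of 0.37, SE 0.09, limma adjusted p = 0.0264), with PAMH replicate 3 at 35.1 FPKM below control replicate 2 at 35.6 FPKM. That call held in 10 of 21 alternatives. It ended with median ratio scaling (0.0530), quantile normalization (0.0684) and no filter (0.0671), and without control replicate 1, 3, 4 or 5 (0.0627, 0.0713, 0.0769 and 0.0701) and without PAMH replicate 1 or 2 (0.0691 and 0.0576). Gna11, Rhoa and Rgs5, the other abundant genes of this list, did not pass (limma adjusted p = 0.257, 0.200 and 0.970). Rhoa passed without PAMH replicate 3 (adjusted p = 0.0389), where 1126 genes in all were called.

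**Figure D5:**
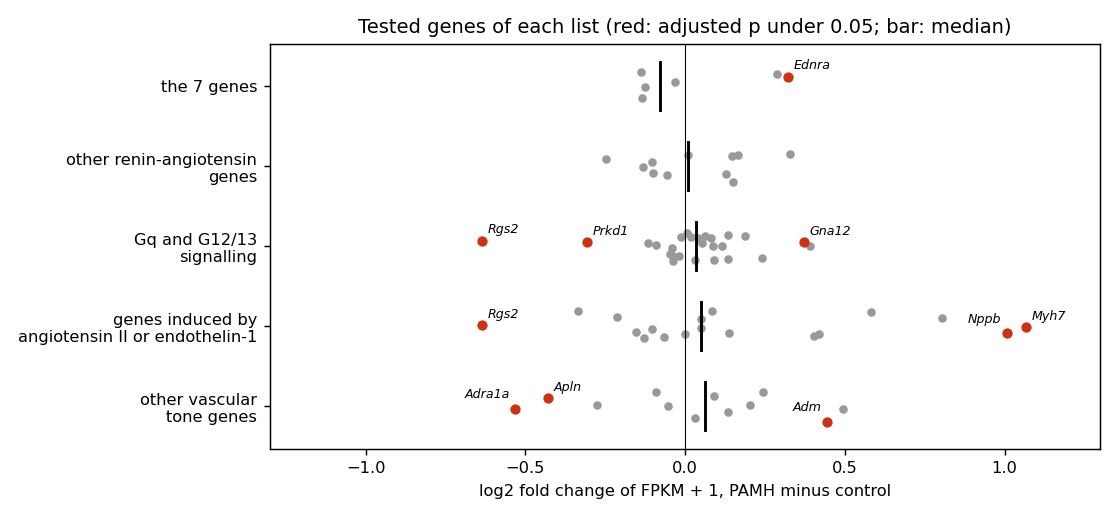
Log2 fold change of FPKM + 1 (horizontal axis, PAMH minus control) of every tested gene of 5 lists. Red points with names have a limma adjusted p under 0.05, gray points do not, and the black bar is the list's median. The lists are centred near 0, between -0.08 and 0.06, and the called genes stand on either side.

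Genes known in the heart to be induced by angiotensin II or endothelin-1 went both ways. Of 18 tested, 2 were higher, 1 lower and 15 not called, around a median of 0.05 on the log2 scale. Calls over all tested genes were 4.95% higher and 1.24% lower. An unadjusted limma p under 0.05 was found for 7 of the 18. The natriuretic peptide gene Nppb, at 132 to 246 FPKM in control and 288 to 435 FPKM in PAMH samples, and the slow myosin gene Myh7, at 13.01 to 17.7 and 25.2 to 43.7 FPKM, were the 2 that rose. All 5 PAMH samples were above all 5 control samples for both, as for 6.74% of all tested genes. Rgs2, itself a member of this list too, was the 1 that fell. Nppa, Acta1 and Ankrd1, the other most abundant genes of the list, did not pass (limma adjusted p = 0.150, 0.842 and 0.171). Nppa, the atrial natriuretic peptide gene, averaged 83.3 ± 31.8 and 150.0 ± 65.0 FPKM, and Ankrd1, a stress-responsive gene of the sarcomere, 95.1 ± 25.5 and 145.6 ± 47.3 FPKM. Ankrd1 passed without PAMH replicate 4 (limma adjusted p = 0.0310).

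Of 12 tested genes of other systems that set vascular tone 1 was higher and 2 were lower, around a median of 0.06 on the log2 scale. Over all tested genes 4.95% were called higher and 1.24% lower. Among these 12 genes 5 had an unadjusted limma p under 0.05. Adra1a, an alpha-1 adrenergic receptor that also couples to Gq, fell from 2.11 ± 0.190 to 1.15 ± 0.218 FPKM (a log2 difference of -0.53, SE 0.08, limma adjusted p = 0.00527). Its groups did not overlap, as with PAMH lower for 1.71% of all tested genes. Adra1a stayed called in all 20 alternatives that tested it. Its relative Adra1b had 4.61 ± 0.421 and 5.53 ± 1.13 FPKM (limma adjusted p = 0.313). For Adra1b the adjusted p was 0.0440 without PAMH replicate 3, where 1126 genes in all were called. Apln, the ligand of the apelin receptor, which opposes angiotensin II in the heart, fell from 4.80 ± 0.567 to 3.31 ± 0.514 FPKM (limma adjusted p = 0.0225), and lost its call without control replicate 1, 3 or 4 or PAMH replicate 5 (adjusted p = 0.0584, 0.0558, 0.0520 and 0.0576), with no filter (0.0699) and with samples rescaled to an equal sum (0.0515). Adm, the vasodilator adrenomedullin, rose from 1.89 ± 0.345 to 2.94 ± 0.585 FPKM (limma adjusted p = 0.0427). Its call held in 8 of 20 alternatives. It ended under median ratio scaling (0.0869), with quantile normalization (0.0864), with no filter (0.13) and with mitochondrial genes left out (0.0858), as well as without control replicate 1, 2, 4 or 5 (0.0865, 0.0651, 0.106 and 0.107) and without PAMH replicate 1, 2 or 4 (0.0928, 0.0877 and 0.0608). The nitric oxide synthase gene Nos3, which lies downstream of Ednrb in endothelial cells, averaged 5.35 ± 0.413 and 5.14 ± 0.726 FPKM (limma adjusted p = 0.748). Ptgis, the prostacyclin synthase gene, and Aplnr, the apelin receptor gene, were not called either (limma adjusted p = 0.0842 and 0.333), at 3.50 and 5.45 FPKM and at 5.42 and 4.28 FPKM in control and PAMH samples.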

How the data were processed

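The authors deposited 1 table of FPKM for 10 heart samples, with no read counts. Per the submitters' processing notes the tools were HISAT2 2.2.1, DESeq2 1.18.1, FastQC 0.11.9, HTSeq 0.13.5, Trimmomatic 0.38 and R 3.4.1, with the build mm10. Neither the notes nor the labels name the tool that gave the FPKM, its annotation or a strand setting. Symbols and coordinates (GRCm38, 1-based) came from GENCODE vM21, which held 55154 of 55335 identifiers. Groups came from sample titles and columns from sample descriptions. FPKM were transformed as log2(FPKM + 1), so fold changes of low genes are understated. Every gene averaging 1 FPKM or more was fitted with limma 3.58.1 in R 4.3.3 (group term, intensity trend, 2-sided, Benjamini-Hochberg adjustment over all tested genes); SE are limma's. The procedure was tested on simulated data. The 4 ratios used exact permutation tests with 0.1 FPKM added. Ren2 was not matched in the table, and 2 list genes are not reported here.

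The 7 genes and all lists were chosen with earlier results of these data known. The genes named were the 7, list genes that passed, and, where under 4 of a list passed, its 4 most abundant genes. Agtr2, Mas1, Ren1, Agtr1b, Ctsg, Edn2, Myl7, Myl4, Sln, Bmp10, Stard10 and Dkk3 were named outside this rule, after their values were seen. Alternatives were other pseudocounts, filters and scalings, robust empirical Bayes, sample weights, a block for the replicate number, and leaving out each sample. Leaving out PAMH replicates 4 and 5 together and leaving out mitochondrial genes with their nuclear copies were chosen after seeing the data. Figures were drawn with matplotlib 3.10.9.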

Additional observations from a re-analysis of the deposited data

Results flagged for a closer look

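In 74 groups of 5 samples examined for the genes and ratios named, 6 had 1 sample far from the other 4. The cut-off used flags about 1 in 20 groups of independent values with a normal distribution. These groups share samples, and for Ece2 and Kel the other values were 0, so the 6 cannot be set against that share. Agtr1a was at 2.27 FPKM in control replicate 5 against 5.41 to 5.97 FPKM in the other controls. The log2 ratio of Edn1 to Ece1 was -5.52 in PAMH replicate 4 against -3.29 to -2.71 in the other PAMH samples. In PAMH replicate 4 the pericyte gene Rgs5 was also low, at 33.4 FPKM against 53.5 to 59.5 FPKM. Ctsd was at 286 FPKM in PAMH replicate 3 where the other PAMH samples had 378 to 400 FPKM. Ece2 was at 0.0537 FPKM in control replicate 2 and Kel at 0.0294 FPKM in PAMH replicate 3, where the other samples of each group were listed at 0.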

How the results depend on the processing

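The count of called genes, 584 (467 higher, 117 lower), moved with the processing. It was 264 (196 and 68) with no filter, 527 with 75 lower at a mean of at least 5 FPKM, 1214 (1038 and 176) with sample weights and 357 (275 higher) without PAMH replicates 4 and 5. Scaling moved the split to 218 and 212 (median ratio), 234 and 246 (quantile) and 216 and 202 (mitochondrial genes left out). Leaving out 1 sample gave 274 to 1126 calls, 202 to 979 higher and 66 to 147 lower. The replicate numbers of the labels are shared between the groups, but same-numbered samples correlated at -0.195 to 0.16 in their deviations, and only replicate 1 correlated best with its own number, so the numbers were not taken as pairs. With the replicate block 239 genes were called (175 and 64), and the adjusted p of Ednra was 0.0634 at a log2 fold change of 0.32. The calls of Prkd1, Gna12 and Adm were also lost with the block (limma adjusted p = 0.0852, 0.0568 and 0.0751). The ratio of Ednra to Ednrb kept its difference of 0.59 in the sign-flip test of the block, where 5 pairs cannot pass (adjusted p = 0.25).

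Ednra kept its direction in all 20 alternatives and lost its call at 0.32 with no filter (adjusted p = 0.0711), 0.24 with median ratio scaling, 0.24 with quantile normalization, 0.31 without PAMH replicates 4 and 5 and 0.23 with mitochondrial genes left out; without 1 sample its log2 fold change was 0.29 to 0.36. It could not be tested at a mean of at least 5 FPKM. The receptor ratio differed by 0.49 to 0.67 without 1 sample. Signs turned for genes and ratios that were never called. Ece1 was 0.012 with samples rescaled to an equal sum and -0.091 to 0.011 without 1 sample. Without PAMH replicates 4 and 5 Edn1 was 0.008, Agtr1a -0.071, Lnpep 0.008 and Rgs5 0.166. Agtrap was 0.003 with sample weights, and Rgs5 0.052 with sample weights, 0.033 with an equal sum and -0.114 to 0.137 without 1 sample. Acta1 was -0.015 with median ratio scaling, -0.03 with mitochondrial genes left out and -0.021 to 0.294 without 1 sample. Without 1 sample the ratio of Edn1 to Ece1 was -0.668 to 0.033 and that of Agt to Ace -0.277 to 0.073. The causes were not tested. Read depth is unknown, which limits what can be said of genes under 1 FPKM such as Edn1.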
